A study of Homo sapiens with 32 samples.

Results

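The transcripts of 10 genes around transforming growth factor beta (TGF-beta) were followed in HEK293 cells, a line from human embryonic kidney. They are the ligand genes TGFB1, TGFB2 and TGFB3, the SMAD inhibitor genes SMAD6 and SMAD7, the SMAD co-repressor gene SKIL, and ID1, ID2, ID3 and ID4. They were chosen by name, and all 10 were found among the 57773 genes of both count tables. The cells of every group were transiently transfected with the receptor AT1R (the type 1 receptor of angiotensin II) and were moved to medium without serum before stimulation. They were left without stimulus (control) or given AngII (angiotensin II, 1 nM), EGF (epidermal growth factor, 10 µg/L) or EGF+AngII, for 6 h or 24 h. Each group held 4 libraries, except that EGF+AngII after 24 h held 3, because no column of counts could be assigned to the remaining library. Libraries were ribosome-depleted total RNA, sequenced as read pairs. A transient transfection leaves a mixture of cells with and without the receptor, and in such bulk RNA fewer responding cells and less RNA per cell cannot be told apart. Nothing in the labels says that libraries of a group came from separate cultures, so that the p-values measure only the spread between these libraries, which may be technical.

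TGF-beta is secreted in a latent form, is released outside the cell and signals through paired serine/threonine kinase receptors to SMAD transcription factors, with a parallel branch for the bone morphogenetic proteins (BMPs). SMAD6 and SMAD7 are inhibitory SMADs that block the receptors and the receptor-driven SMADs, and SKIL encodes SnoN, which represses SMAD target genes. ID proteins lack a DNA-binding region and hold back basic helix-loop-helix factors, and ID genes are classical targets of BMP signalling. In kidney, TGF-beta is known for its part in fibrosis, and angiotensin II is known to raise its production in several cell types.

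Counts were scaled to FPM (fragments per 1000000 of the library after scaling by the trimmed mean of M values, TMM). After 6 h the totals ran from 3881841 to 8540815 counts with 81.4% to 84.7% in protein-coding genes. After 24 h they ran from 6646227 to 33070903 with 20.8% to 63.4% in protein-coding genes and 8.90% to 57.2% in genes of the small nuclear RNA U1. The biological coefficient of variation was 10.6% after 6 h and 29.1% after 24 h. AGTR1, the gene of the transfected receptor, reached 369 to 1568 FPM in all 31 libraries. EGR1, an immediate early gene of growth factor signalling, was at 1.39 to 2.87 FPM in control and at 47.8 to 68.4 FPM in the libraries with EGF after 6 h. Of 10 genes listed as typical of HEK293 cells, 8 had a median above 1 FPM, with PAX2 and PAX8 below it. Endothelial markers stayed under that level (0 of 4), and the leukocyte markers PTPRC and CD3E had a median of 0. TGFB1 and the other members are expressed by many cell types and were not among these markers.

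The promoters of the members on which the results turn are shown here so that their sequence can be set beside the values. The 250 bases before the RefSeq start of each gene (GRCh38.p14) are printed 5′ to 3′ on the strand of the gene, with matches to the searched motifs in capitals. TGFB1, ID2 and ID4 are given because they passed the test after 6 h. SMAD6, which did not pass, was added after the motif search of all members because its window holds a SMAD motif.

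TGFB1, chr19:41353923-41354172, minus strand: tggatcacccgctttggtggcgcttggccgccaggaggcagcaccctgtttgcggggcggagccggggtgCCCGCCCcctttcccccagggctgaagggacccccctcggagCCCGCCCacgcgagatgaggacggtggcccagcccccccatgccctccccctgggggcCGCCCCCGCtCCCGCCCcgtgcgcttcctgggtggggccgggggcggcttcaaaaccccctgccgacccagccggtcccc
ID2, chr2:8681806-8682055, plus strand: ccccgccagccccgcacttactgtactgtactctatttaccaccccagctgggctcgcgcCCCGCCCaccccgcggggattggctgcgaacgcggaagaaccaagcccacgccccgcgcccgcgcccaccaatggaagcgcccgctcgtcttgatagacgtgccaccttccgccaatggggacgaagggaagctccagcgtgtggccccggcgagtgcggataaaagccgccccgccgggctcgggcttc
ID4, chr6:19837120-19837369, plus strand: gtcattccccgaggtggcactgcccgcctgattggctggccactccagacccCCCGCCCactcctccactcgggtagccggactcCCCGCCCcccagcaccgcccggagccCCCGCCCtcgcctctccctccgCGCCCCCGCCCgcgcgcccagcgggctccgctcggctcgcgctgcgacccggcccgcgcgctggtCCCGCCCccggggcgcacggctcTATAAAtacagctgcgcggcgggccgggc
SMAD6, chr15:66701986-66702235, plus strand: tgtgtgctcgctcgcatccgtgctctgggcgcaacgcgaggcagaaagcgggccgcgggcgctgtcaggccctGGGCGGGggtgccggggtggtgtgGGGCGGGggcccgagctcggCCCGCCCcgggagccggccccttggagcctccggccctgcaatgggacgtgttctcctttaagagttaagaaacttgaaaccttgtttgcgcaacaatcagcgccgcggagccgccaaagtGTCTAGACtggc

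The EGR motif GCGGGGGCG, searched on both strands, lay 80 to 72 bases before the TGFB1 start and 117 to 109 bases before the ID4 start, where it overlapped a GC box. It was present in 4.72% of 35114 promoter windows of the same length and had no match in the ID2 window. The GC box GGGCGGG was found 3 times in TGFB1, once in ID2, 5 times in ID4 and 3 times in SMAD6, and 31.5% of all windows held it. The SMAD palindrome GTCTAGAC lay 12 to 5 bases before the SMAD6 start and was held by 0.182% of all windows. The AP-1 motif TGANTCA (6.57% of all windows), the CArG box (1.16%) and the motif TGACGTCA (1.65%) had no match in these 4 windows. Among all members the BMP SMAD motif GGCGCC (16.4%) had a match in SKIL only, and none in an ID gene. The TATA motif TATAAA (10.7%) lay 29 to 24 bases before the ID4 start and had no match in TGFB1, ID2 or SMAD6. Guanine and cytosine made up 76.8% of the TGFB1 window, 69.2% of ID2, 78.8% of ID4 and 68% of SMAD6. A match describes the letters only and is not evidence of a bound factor.

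Levels of different genes were compared per length, as FPKM (FPM per kilobase of exon). In control cells after 6 h the order ran from ID4 at 13.5 ± 1.48 FPKM (SD, n = 4) through ID2 at 9.35 ± 1.99, SKIL at 8.23 ± 0.472 and ID3 at 7.0 ± 2.54 to SMAD7 at 3.32 ± 0.959. Below them followed SMAD6 at 1.98 ± 0.617, TGFB3 at 1.73 ± 0.323, TGFB1 at 1.49 ± 0.428, ID1 at 1.26 ± 0.406 and TGFB2 at 0.750 ± 0.206 FPKM. The ranges of the 4 libraries overlapped between every pair of neighbours in this order, so that only genes further apart were separated. After 24 h ID4 was again at the top with 11.8 ± 1.29 FPKM, and its range lay above that of ID2 at 8.36 ± 1.16, which in turn lay above that of SKIL at 5.20 ± 0.553. The ranges of all later neighbours overlapped. TGFB1 had 2.77 ± 0.517 FPKM in the control cells after 24 h, when ID3 stood above it and ID1 below it. Both time points were normalised separately, so that their levels are given side by side only. The lowest counts belonged to ID1, with 4 to 13 counts in the control libraries after 6 h, against 229 to 354 for ID4.

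**Figure D1:**
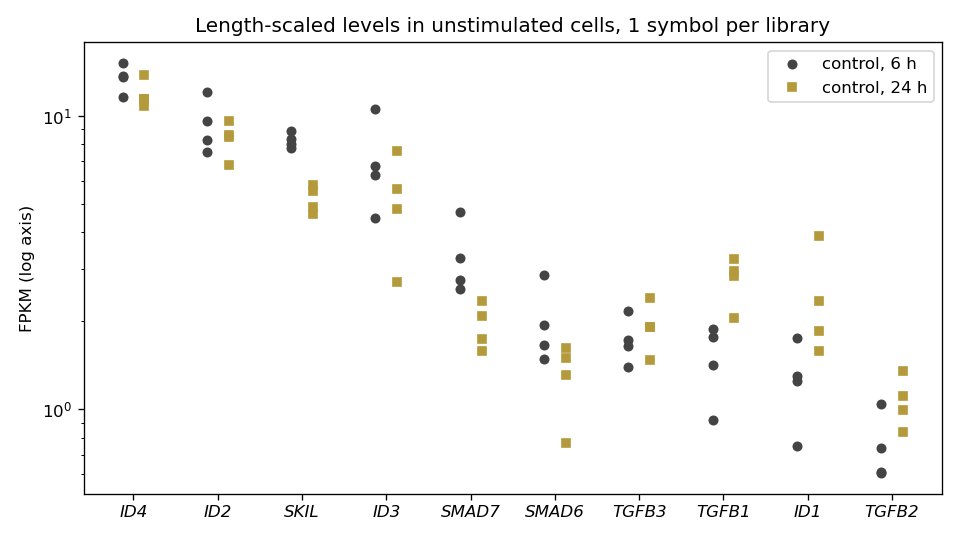
Level of each gene in unstimulated cells (FPKM, logarithmic axis), with 1 circle per control library after 6 h and 1 square per control library after 24 h (4 each). Genes are ordered by their mean after 6 h, from ID4 at 13.5 FPKM to TGFB2 at 0.750 FPKM.

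The first question was whether EGF acted on these genes after 6 h. With EGF, TGFB1 rose to about 4 times the control level, while ID2 and ID4 rose by less than 1.5 times, and the other 7 genes did not pass the test. Of 10 members 3 passed at an adjusted p under 0.05 (edgeR, Benjamini-Hochberg over 18618 genes), all higher, against 5.97% of all genes in either direction and 3.6% in the higher direction. The median log2 fold change was 0.20 over the members and -0.01 over all genes tested. An unadjusted p under 0.05 was reached by 6 of 10 members and by 20.2% of all genes.

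TGFB1 (chr19:41807492-41859827, GRCh37, minus strand), the ligand gene most widely expressed in adult tissue, was measured at 3.01, 4.63, 5.75 and 6.12 FPM in control. With EGF it was at 20.7, 23.9, 17.5 and 19.4 FPM, and with EGF+AngII at 23.4, 29.8, 17.9 and 21.2 FPM. Every library with EGF lay above every library without it. The mean was 4.88 ± 1.4 FPM in control (SD, n = 4), from 13 to 37 counts, and 20.4 ± 2.69 FPM with EGF (n = 4), from 111 to 160 counts. The log2 fold change was 2.03 with a standard error of 0.199 (4.10-fold, 95% interval 3.08 to 5.45, adjusted p = 5.26e-07). The library numbers form 2 runs, 1 to 8 and 9 to 16, which are called the first and the second series here, and each of the above lists gives first the libraries of the first series. The ratio of EGF to control was 5.84 in the first and 3.11 in the second series, and every EGF library exceeded both controls of its own series. TGFB1 shares 215 bases (6.59% of its exon length) with HNRNPUL1 on the other strand, and the strand setting of the counting is not given in the sources used here. HNRNPUL1 itself had a log2 fold change of -0.08 with EGF (adjusted p = 0.561).

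**Figure D2:**
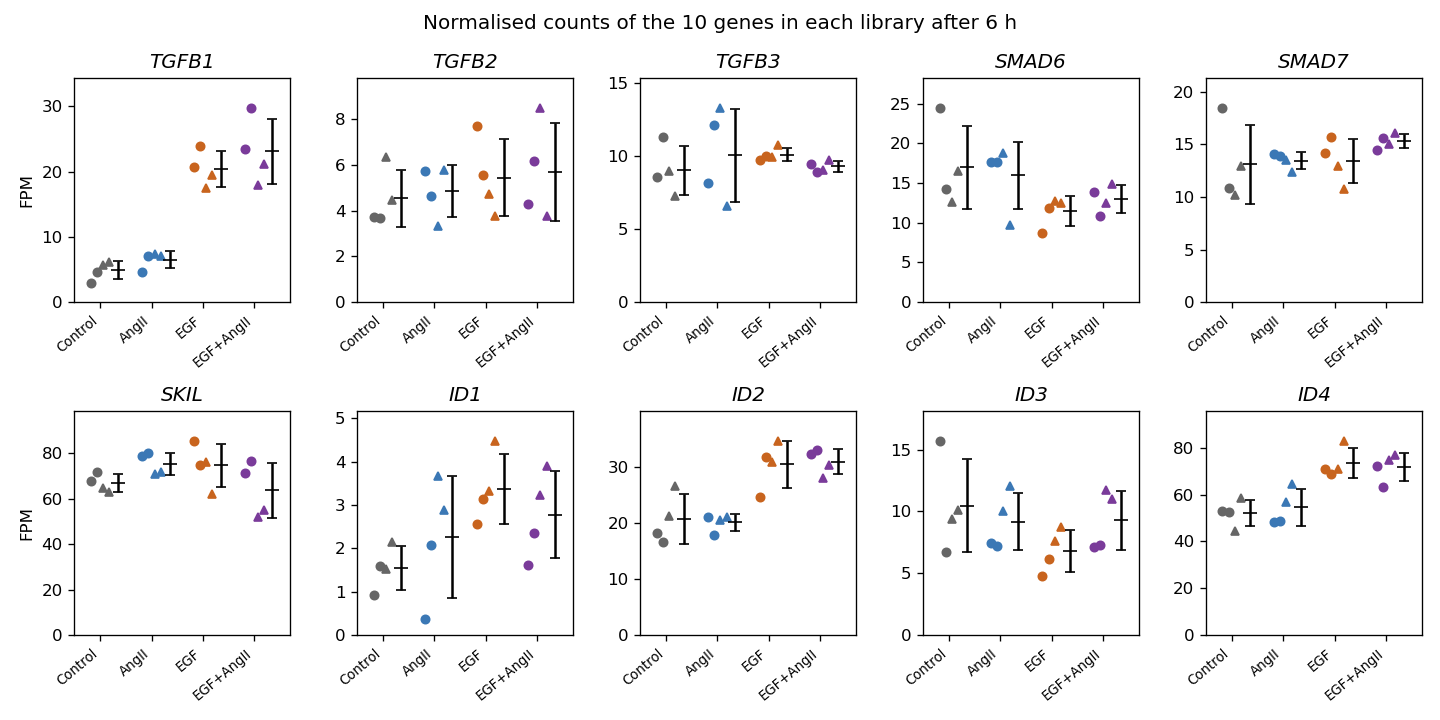
FPM of the 10 genes in each of the 16 libraries after 6 h, with circles for the first and triangles for the second library series and black bars for the mean ± SD of each condition. The TGFB1 panel separates the 8 libraries with EGF (17.5 to 29.8 FPM) from the 8 without (3.01 to 7.34 FPM).

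TGFB2 and TGFB3 encode the other two TGF-beta ligands. TGFB2 ranged from 3.67 to 6.32 FPM in control and from 3.76 to 7.70 FPM with EGF, with a log2 fold change of 0.24 (adjusted p = 0.700). TGFB3 ranged from 7.28 to 11.3 FPM in control and from 9.75 to 10.8 FPM with EGF, with a log2 fold change of 0.16 (adjusted p = 0.689). For both ligands the groups overlapped. The 95% intervals of the ratio reached from 0.787 to 1.77 for TGFB2 and from 0.858 to 1.46 for TGFB3, both below the interval of TGFB1. TGFB2 overlaps the antisense gene TGFB2-AS1 over 11.6% of its exon length, and that gene had 1 to 9 counts per library after 6 h.

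Among the inhibitors, SMAD6 was at 24.5, 14.2, 12.6 and 16.5 FPM in control and at 8.72, 11.8, 12.8 and 12.5 FPM with EGF. Its groups overlapped by a narrow margin, since the lowest control and the highest EGF library were 12.6 and 12.8 FPM. The log2 fold change was -0.54 with a standard error of 0.198 (adjusted p = 0.111), and it passed in 1 of 21 alternative settings (adjusted p = 0.0374 without the filter on low counts). Of these settings, 16 left out 1 library each. SMAD6 passed in 0 of those, with log2 fold changes from -0.650 to -0.328. The ratio was 0.530 in the first and 0.866 in the second series, and the control library at 24.5 FPM belongs to the first. SMAD7, which shields the TGF-beta type I receptor, ranged from 10.2 to 18.5 FPM in control and from 10.8 to 15.7 FPM with EGF, with a log2 fold change of 0.05 (adjusted p = 0.919). SKIL ranged from 63.0 to 71.8 FPM in control and from 62.2 to 85.5 FPM with EGF, with a log2 fold change of 0.16 (adjusted p = 0.462).

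In the ID family, ID2 was at 18.3, 16.6, 21.3 and 26.6 FPM in control and at 24.6, 31.7, 30.8 and 34.7 FPM with EGF. The ranges overlapped across the series, but within each series both EGF libraries lay above both controls (ratio 1.62 and 1.37). The log2 fold change was 0.56 with a standard error of 0.131 (1.47-fold, 95% interval 1.22 to 1.78, adjusted p = 0.0105). ID2 shares 145 bases with the antisense gene ID2-AS1, which had 1 to 11 counts per library against 79 to 161 counts of ID2 in control.

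ID4, the family member with the highest level in these cells, was at 53.0, 52.5, 44.6 and 58.5 FPM in control and at 71.0, 68.9, 71.0 and 83.1 FPM with EGF. The groups did not overlap. The log2 fold change was 0.49 with a standard error of 0.101 (1.41-fold, 95% interval 1.22 to 1.63, adjusted p = 0.00350), and the ratio was 1.33 in the first and 1.49 in the second series.

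ID1 and ID3 had other values. ID1 was at 0.925, 1.59, 1.53 and 2.15 FPM in control and at 2.57, 3.14, 3.31 and 4.49 FPM with EGF. These groups did not overlap, but the counts were few and the log2 fold change of 1.10 with a standard error of 0.404 did not pass (adjusted p = 0.115). ID3 was at 15.7, 6.70, 9.39 and 10.1 FPM in control and at 4.79, 6.13, 7.58 and 8.73 FPM with EGF, so that the groups overlapped. Its log2 fold change was -0.58 with a standard error of 0.247 (adjusted p = 0.187). Leaving out each library in turn gave values from -0.744 to -0.330 for ID3, which passed in 0 of 16 fits. The ID3 control at 15.7 FPM came from the same library as the highest controls of SMAD6 (24.5 FPM) and SMAD7 (18.5 FPM). That library also held the lowest controls of TGFB1 (3.01 FPM) and ID1 (0.925 FPM).

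AngII alone was asked next, since AT1R is its receptor. Of 10 members 0 passed after 6 h (edgeR, and 0 with DESeq2), 0 had an unadjusted p under 0.05, and 0% of all genes passed, with 4.54% at an unadjusted p under 0.05. TGFB1 was at 4.56, 7.04, 7.34 and 7.08 FPM with AngII, which overlapped the control range, with a log2 fold change of 0.39 (1.31-fold, 95% interval 0.937 to 1.84, adjusted p = 0.987). ID2 ranged from 17.9 to 21.1 FPM and ID4 from 48.1 to 64.6 FPM with AngII, both overlapping control. Their ratios to control were 0.967 (95% interval 0.792 to 1.18) and 1.04 (95% interval 0.894 to 1.21). The levels of AGTR1 differed with the stimulus, from 950.1 to 1236 FPM in the 8 libraries without and from 1318 to 1568 FPM in the 8 libraries with AngII after 6 h, and the part of this in the values was not tested.

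With EGF+AngII after 6 h, again TGFB1, ID2 and ID4 passed as higher and no member passed as lower. Of 10 members 3 passed, against 6.1% of all genes in either direction and 4% in the higher direction, and 3 had an unadjusted p under 0.05, against 18.9% of all genes. This comparison shares its control libraries with that of EGF. TGFB1 reached 23.1 ± 5.03 FPM (SD, n = 4), with a log2 fold change of 2.21 and a standard error of 0.198 (4.61-fold, 95% interval 3.47 to 6.13, adjusted p = 9.48e-08). ID2 was at 32.3, 33.1, 28.0 and 30.4 FPM, all above the 4 controls, with a log2 fold change of 0.57 (adjusted p = 0.00899). ID4 was at 72.2, 63.4, 74.8 and 76.7 FPM, also all above the controls, with a log2 fold change of 0.46 (adjusted p = 0.00632). SMAD6 had a log2 fold change of -0.36 (adjusted p = 0.340), ID1 one of 0.82 (adjusted p = 0.299) and ID3 one of -0.13 (adjusted p = 0.834). With the additional thresholds used in the study, a fold change above 1.5 and more than 5 FPM, 1 of 10 members was left in each of both comparisons, namely TGFB1, against 1.73% of all genes with EGF and 1.95% with EGF+AngII.

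**Figure D3:**
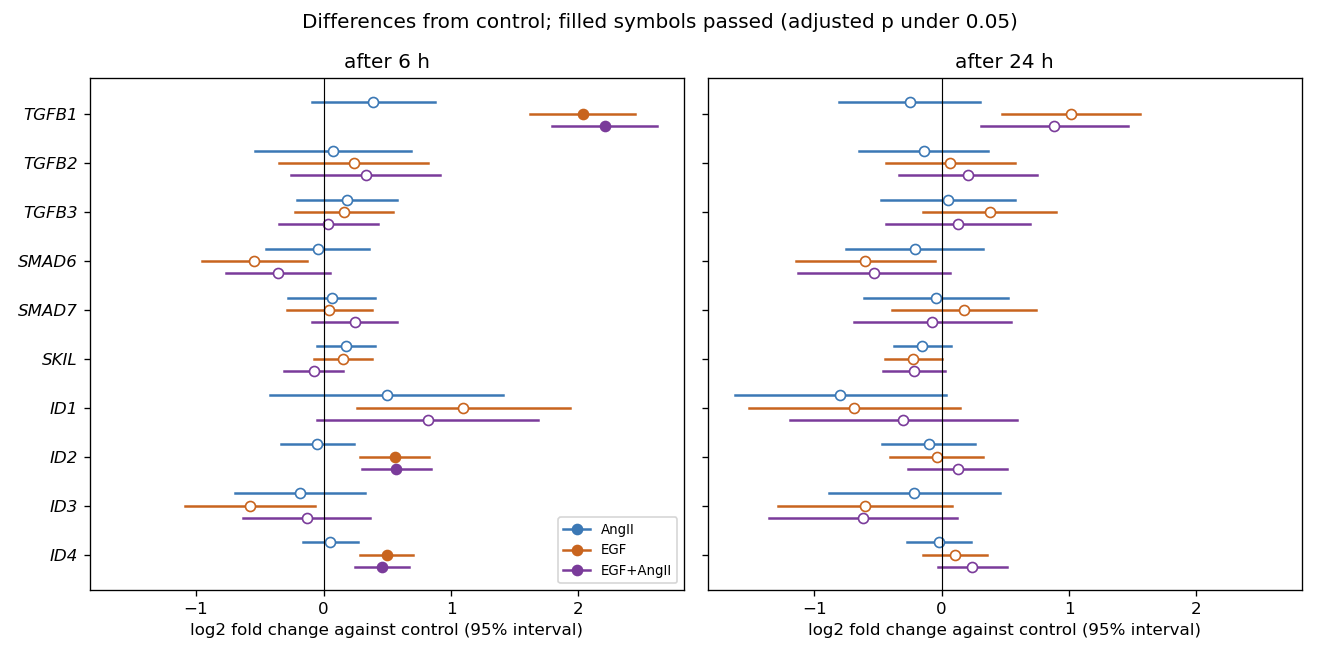
Log2 fold change of each gene against control with its 95% interval, after 6 h and after 24 h, for AngII, EGF and EGF+AngII. Filled symbols passed at an adjusted p under 0.05, which holds for TGFB1, ID2 and ID4 with EGF and with EGF+AngII after 6 h.

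Whether AngII added to EGF was tested by comparing EGF+AngII with EGF and by the interaction of both stimuli. Neither passed for any member after 6 h (edgeR, and 0 with DESeq2), with 1 of 10 members at an unadjusted p under 0.05 in each, against 7.26% and 8.01% of all genes, and 0% of all genes passed. TGFB1 with EGF+AngII was 1.13-fold of that with EGF (95% interval 0.894 to 1.42), ID2 was 1.01-fold (0.845 to 1.21) and ID4 was 0.976-fold (0.848 to 1.12). For these 3 genes a change by AngII of more than 1.5 times in the presence of EGF lies outside the interval. The member at the unadjusted level was SKIL, at 85.5, 75.0, 75.9 and 62.2 FPM with EGF and at 71.3, 76.6, 51.8 and 54.9 FPM with EGF+AngII, and these groups overlapped. Its log2 difference was -0.23 (95% interval -0.459 to -0.00401, adjusted p = 0.682), and its interaction was -0.41 (95% interval -0.73 to -0.08, adjusted p = 0.592).

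After 24 h no member passed with any stimulus. The counts were 0 of 10 with EGF against 0.0316% of all genes, 0 of 10 with EGF+AngII against 0.0271%, and 0 of 10 with AngII against 0%. An unadjusted p under 0.05 was reached by 2 members with EGF (8.48% of all genes), 1 with EGF+AngII (5.4%) and 0 with AngII (2.49%). At an adjusted p under 0.05 DESeq2 called 1 member with EGF, TGFB1, and 0 in the other comparisons. The share of all genes that DESeq2 called is not given here, so that its count cannot be set beside a share. TGFB1 was at 9.63, 6.67, 10.6 and 9.25 FPM in control and at 12.6, 20.3, 16.1 and 24.1 FPM with EGF, and the groups did not overlap. With EGF+AngII it was at 12, 19.1 and 19.1 FPM, also above every control. The log2 fold change with EGF was 1.02 with a standard error of 0.260 (2.03-fold, 95% interval 1.39 to 2.95, adjusted p = 0.218), and the ratio was 2.02 in both series. TGFB1 passed with EGF in 3 of 20 alternative settings, with adjusted p = 0.0343 by DESeq2, adjusted p = 0.00116 without the filter on low counts and adjusted p = 0.0327 in a fit blocked by library series. These 3 settings used all libraries. Of the 20 settings, 15 were edgeR fits that left out 1 library each, and TGFB1 passed in 0 of those (adjusted p from 0.149 to 0.410). After 24 h the series largely go together with the columns named as filtered, as described with the processing. With EGF+AngII the log2 fold change was 0.88 (adjusted p = 0.618), and it passed without the filter (adjusted p = 0.0197). With AngII alone TGFB1 was at 5.12, 4.79, 10.7 and 10.1 FPM and overlapped control. EGF+AngII against EGF and the interaction gave 0 of 10 members after 24 h (edgeR, and 0 with DESeq2), and 0 at an unadjusted p under 0.05, against 3.37% and 2.37% of all genes. TGFB1 with EGF+AngII was then 0.911-fold of that with EGF (95% interval 0.611 to 1.36).

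**Figure D4:**
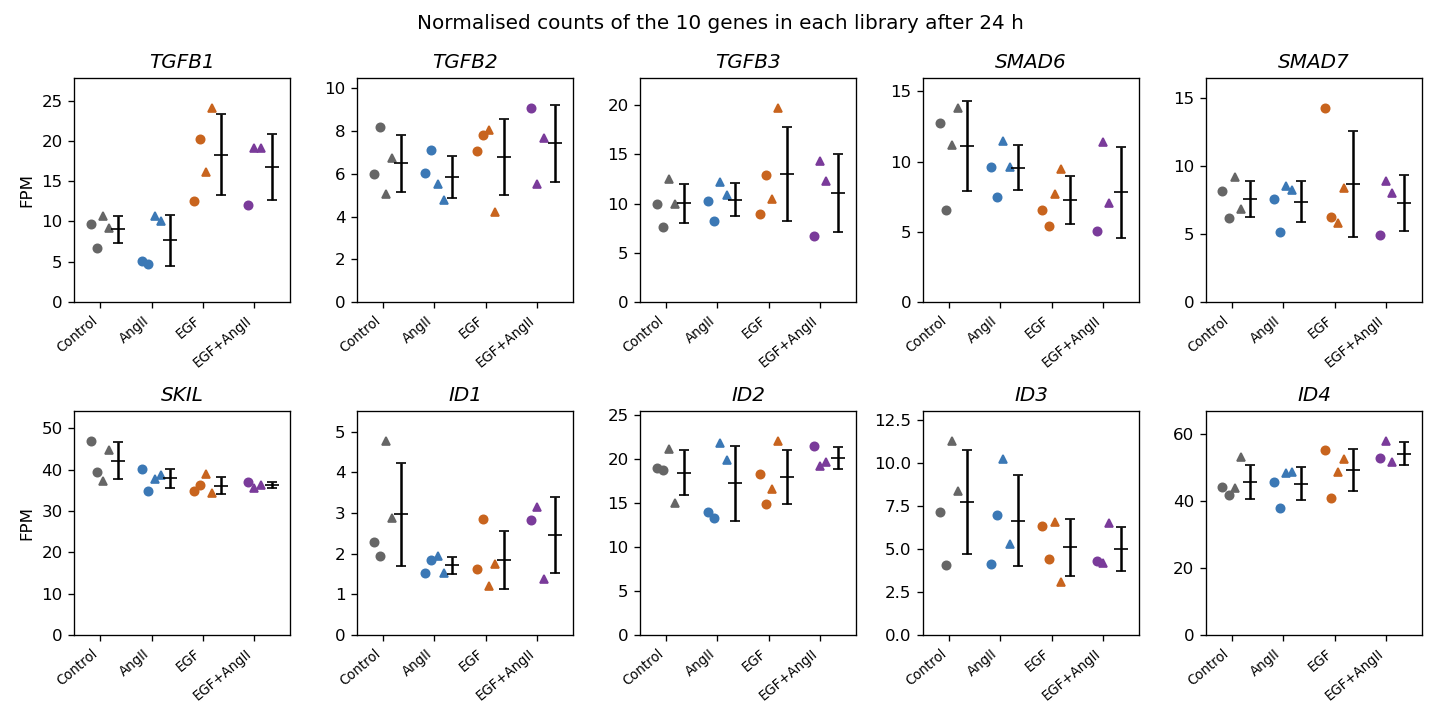
FPM of the 10 genes in each of the 15 libraries after 24 h, with circles for the first and triangles for the second library series and black bars for the mean ± SD. TGFB1 lay at 12 to 24.1 FPM in the 7 libraries with EGF and at 4.79 to 10.7 FPM in the 8 without.

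Of the ID genes that had passed after 6 h, ID2 had a mean of 18.5 ± 2.57 FPM in control (SD, n = 4) and 18.0 ± 3.08 FPM with EGF (n = 4) after 24 h, a ratio of 0.973 (95% interval 0.757 to 1.25). ID4 had a mean of 45.8 ± 4.98 FPM in control (n = 4) and 49.4 ± 6.17 FPM with EGF (n = 4), a ratio of 1.08 (95% interval 0.904 to 1.28). SMAD6 was at 12.8, 6.55, 11.2 and 13.9 FPM in control and at 6.58, 5.42, 7.73 and 9.45 FPM with EGF, which overlapped. Its log2 fold change of -0.60 did not pass (adjusted p = 0.534). The most negative log2 fold change with AngII after 24 h was that of ID1, -0.79 (adjusted p = 1.000), from 27 to 90 counts per library in control. TGFB2, TGFB3, SMAD7 and SKIL overlapped control with EGF.

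The change of the stimulus effect from 6 h to 24 h was tested in a joint fit of all 31 libraries. Of 10 members 0 passed with EGF and 0 with EGF+AngII (edgeR, against 0.173% and 0.123% of all genes). For TGFB1 the log2 effect after 24 h minus that after 6 h was -1.02 with a standard error of 0.351 for EGF (adjusted p = 0.267) and -1.35 with a standard error of 0.365 for EGF+AngII (adjusted p = 0.186). The latter passed without the filter (adjusted p = 0.00516) and in the fit blocked by library series (adjusted p = 0.0295). For ID2 the difference of the EGF effect was -0.60 (adjusted p = 0.320) and for ID4 it was -0.39 (adjusted p = 0.392). All libraries of 1 time point belong to the same set by their titles and differ from the other set in depth and in the share of U1, so that time and set of libraries cannot be told apart.

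The other genes of the pathway were taken from a list of 85 ligands, antagonists, latency proteins, receptors, SMADs, regulators, targets and E proteins. After 6 h 69 of them were tested, and the 16 others had at most 15 counts in any library, among them the TGF-beta target TGFBI (0 to 2 counts). With EGF 4 of 69 passed as higher and 1 as lower in edgeR, and with EGF+AngII 7 passed as higher and 0 as lower, against the same 5.97% and 6.1% of all genes. An unadjusted p under 0.05 was reached after 6 h by 22 of 69 with EGF (20.2% of all genes) and 22 with EGF+AngII (18.9%). With AngII 0 passed after 6 h, as of all genes, and 3 had an unadjusted p under 0.05 (4.54% of all genes). After 24 h 0 of 74 passed with any stimulus, against 0.0316% of all genes with EGF, 0.0271% with EGF+AngII and 0% with AngII. At an unadjusted p under 0.05 were then 12 with EGF (8.48% of all genes), 4 with EGF+AngII (5.4%) and 0 with AngII (2.49%).

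Among ligands, BMP6 rose from 15.3 ± 4.80 FPM in control to 22.4 ± 2.85 FPM with EGF (SD, n = 4 each), a log2 fold change of 0.57 (adjusted p = 0.0292), and it rose by 0.60 with EGF+AngII (adjusted p = 0.0248). In the group of latency and activation, LTBP1, which anchors latent TGF-beta in the matrix, fell from 63.7 ± 6.88 to 50.4 ± 5.13 FPM with EGF, a log2 fold change of -0.34 (adjusted p = 0.0289), while its value with EGF+AngII was -0.20 (adjusted p = 0.233). FURIN, a protease that cuts the TGF-beta precursor, rose with EGF+AngII by 0.45 (adjusted p = 0.00207) and had a log2 fold change of 0.27 with EGF (adjusted p = 0.0763 in edgeR and 0.0461 in DESeq2).

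Of the receptors 0 of 13 tested passed in edgeR with EGF and 0 of 13 with EGF+AngII, and of the SMADs of the signalling branch 0 of 6 passed in both. Of all genes 5.97% and 6.1% passed, so that 0 among so few genes is near that share. The activin receptor gene ACVR2B was called lower with EGF+AngII by DESeq2 (log2 fold change -0.20, adjusted p = 0.0164) and by edgeR among protein-coding genes only (adjusted p = 0.0266), where ACVR1B was called lower too (-0.23, adjusted p = 0.0492). TGFBR1 and TGFBR2, the type I and type II receptors of TGF-beta, had log2 fold changes of 0.24 (adjusted p = 0.0947) and 0.18 (adjusted p = 0.282) with EGF. Among regulators 1 of 13 passed in edgeR with each of both stimuli, against the same shares of all genes. It was NEDD4L, a ubiquitin ligase of activated SMADs, which rose by 0.44 with EGF (adjusted p = 0.00574) and by 0.42 with EGF+AngII (adjusted p = 0.00790). USP15, a deubiquitinase of this pathway, did not pass in the main edgeR fit but was called higher with EGF by DESeq2 (log2 fold change 0.28, adjusted p = 0.0290). In edgeR it was also called higher without the filter on low counts (adjusted p = 0.0472) and among protein-coding genes only (adjusted p = 0.0380). The edgeR fit blocked by library series called it too (adjusted p = 0.0467).

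Among 13 tested target genes 2 passed with EGF and 3 with EGF+AngII in edgeR, against 5.97% and 6.1% of all genes. BHLHE40, a helix-loop-helix repressor, rose from 47.1 ± 5.70 to 84.4 ± 8.09 FPM with EGF (SD, n = 4 each), a log2 fold change of 0.83 (adjusted p = 0.000188), and by 0.96 with EGF+AngII (adjusted p = 3.15e-05). CDKN1A, the gene of the cell cycle inhibitor p21, rose by 0.39 (adjusted p = 0.0214) and 0.45 (adjusted p = 0.00891). JUNB, an AP-1 subunit, rose by 0.66 with EGF+AngII (adjusted p = 0.0485) and had a log2 fold change of 0.39 with EGF (adjusted p = 0.283). All 3 genes also respond to many stimuli other than TGF-beta. Of the E proteins, which ID proteins bind, TCF3 rose by 0.42 with EGF+AngII (adjusted p = 0.00320), TCF4 and TCF12 did not pass, and no E protein passed with EGF.

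**Figure D5:**
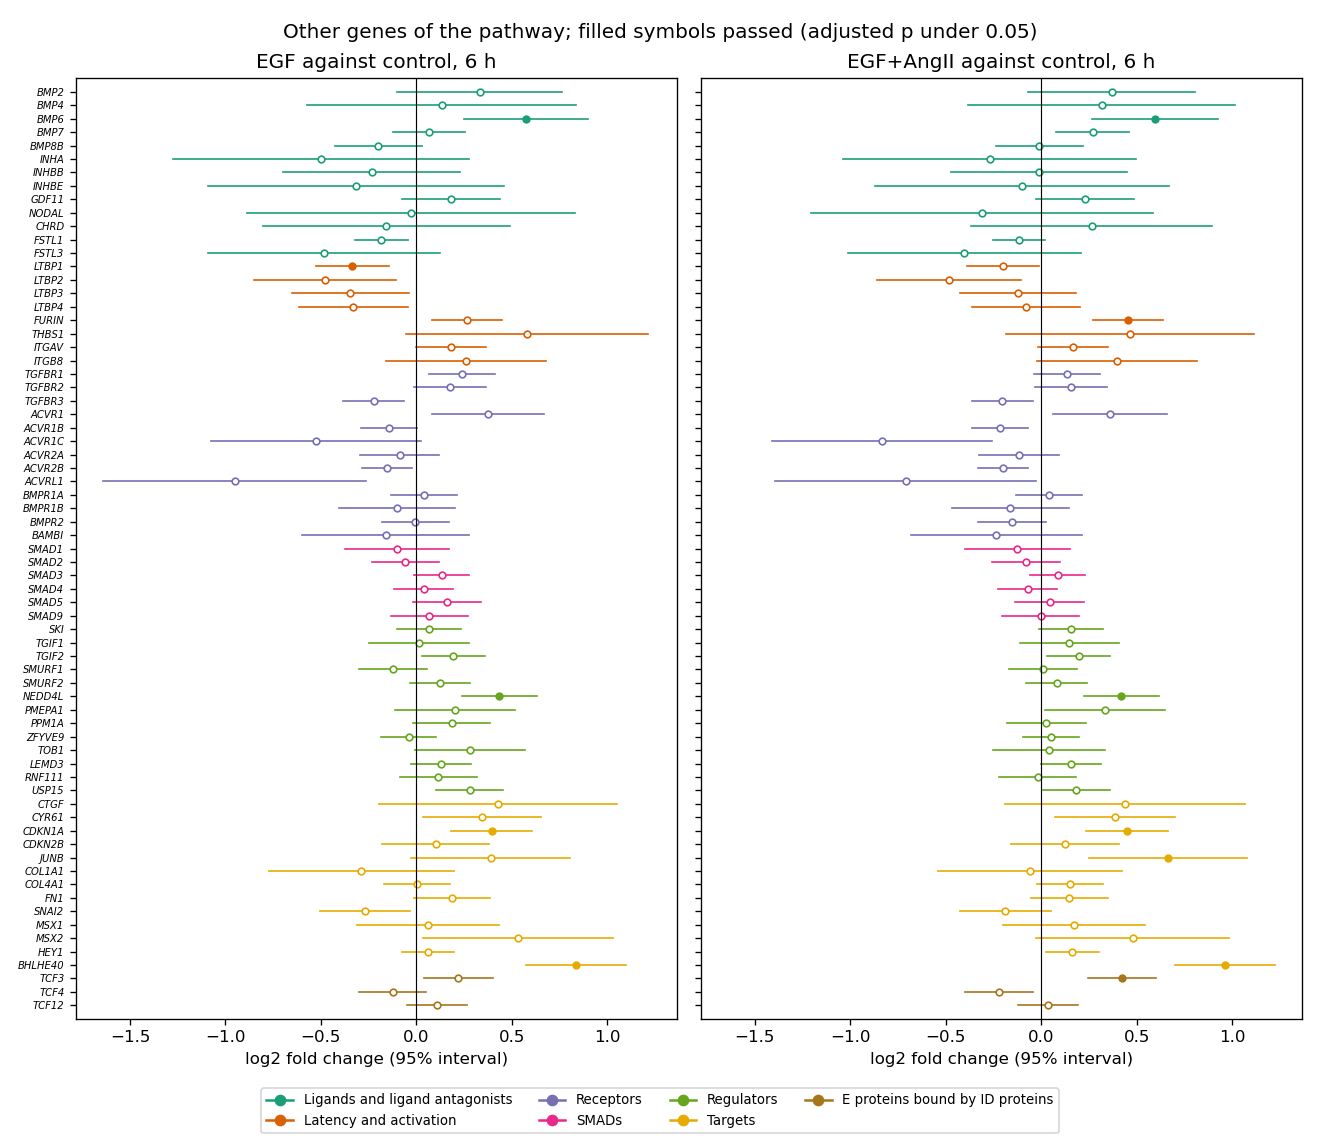
Log2 fold change with its 95% interval for the 69 tested pathway genes after 6 h, with EGF on the left and EGF+AngII on the right, coloured by role. Filled symbols passed, 5 with EGF and 7 with EGF+AngII in edgeR, against 5.97% and 6.1% of all genes.

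For the 3 members that passed after 6 h, the genes with the most similar profile over the 16 libraries were listed by the root mean square difference of log2 FPM centred on the control mean, among 13000 genes. The profile of TGFB1 was closest to that of SLC2A3, the glucose transporter GLUT3 (0.334), and of SOX8 (0.470) and RP11.161M6.2 (0.489). That of ID2 was closest to CD151 (0.124), PGAM1 (0.141) and RUNX1 (0.141), and that of ID4 to NRARP (0.0950), TRIM71 (0.116) and CCND1, the gene of cyclin D1 (0.118). SLC2A3 had log2 fold changes of 1.83 with EGF and 2.04 with EGF+AngII, against 2.03 and 2.21 of TGFB1. These distances describe the 16 libraries, which share the controls and the stimuli, and were not tested.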

How the data were processed

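The authors deposited raw counts of read pairs per gene in a table for each time point. According to the submitters' processing notes and the methods of the study, adaptors were removed with Trim Galore and cutadapt 1.8.1, reads were mapped with TopHat2 2.0.14 to hg19 and counted with featureCounts 1.4.6. The series' own design text gives HISAT2 for the mapping. Strand settings of the counting are not given in the sources used here. Of the 24 h columns, 8 carry the word filtered in their name and 7 do not. All columns of the first series are among the filtered ones, and of the second series only a library of EGF+AngII is. After 24 h the library series and this naming thus largely go together. What was filtered is not given in the sources used here. Conditions came from the labels, and 31 of 32 labelled libraries had counts.

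From the counts, edgeR 4.0.16 (R 4.3.3) was used for quasi-likelihood tests in a separate fit of all 4 conditions per time point, after TMM scaling and filterByExpr by condition (minimum count 10). This left 18618 genes after 6 h and 22174 after 24 h. P-values were adjusted over these genes by Benjamini-Hochberg, with 0.05 as the limit, and 95% intervals used the moderated standard error. A joint fit of all libraries gave the differences between time points. Exon lengths for FPKM and overlaps were taken from a GENCODE annotation lifted to GRCh37, promoters from RefSeq. That annotation is later than the Ensembl release the study names. The exon lengths, and with them the order of levels, may therefore differ from the gene models that were counted. The fits were tested on simulated data with known changes. Named were all members, each pathway gene that passed against control, the 3 nearest profiles of each member that passed after 6 h, EGR1 and AGTR1, and further genes for context were chosen after their values were seen. Alternatives were DESeq2 1.42.0, its size factors, no filter, stricter thresholds, protein-coding genes only, the library series as a block and leaving out each library. The members and lists were chosen with earlier results of these data known. After 24 h 15 libraries entered the fits, although 16 had been planned.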

Additional observations from a re-analysis of the deposited data

Results flagged for a closer look

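In groups of 4 libraries, the distance of the highest or lowest library from its nearest neighbour was divided by the range of the group. Of 70 groups of the members 3 exceeded the 95% critical value of Dixon's test, and chance gives about 1 in 20 groups, or 3.5 here. TGFB1 in AngII after 6 h had 1 low library at 4.56 FPM, with a ratio of 0.893. SMAD6 in AngII after 6 h had 1 low library at 9.71 FPM, with a ratio of 0.864. ID4 in EGF after 6 h had 1 high library at 83.1 FPM, with a ratio of 0.850. The libraries are different ones, and no explanation was tested for them.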

How the results depend on the processing

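After 6 h 3 members passed with EGF, but 1 with the thresholds of the study, 2 at an adjusted p under 0.01 (without ID2) and 4 without the filter on low counts (with SMAD6 lower). With EGF+AngII 3 passed in the main test and under every alternative except the thresholds of the study, where 1 passed. Of the pathway genes, 5 passed with EGF, but 1 with the thresholds of the study and 2 at an adjusted p under 0.01, against 5 to 7 under the other settings with all libraries (7 with DESeq2 and 7 without the filter, where LTBP1 did not pass). With EGF+AngII 7 passed, but 3 with the thresholds of the study and 5 at an adjusted p under 0.01, against 7 to 9 under the others (8 with DESeq2 and 9 among protein-coding genes only). After 24 h 0 members passed with EGF, but 1 with DESeq2, 1 without the filter and 1 in the fit blocked by library series, which also gave 1 pathway gene, BHLHE40. With EGF+AngII after 24 h 1 member passed without the filter. The difference between time points with EGF+AngII gave 0 members, but 1 without the filter and 1 in the fit blocked by library series. The member in each of these counts of 1 was TGFB1, and the cause was not tested. Except for the thresholds of the study after 6 h, the share of all genes that passed under each alternative is not given here. The counts under the alternatives therefore cannot be set beside such a share. Leaving out each library in turn gave 3 to 3 members with each of both stimuli after 6 h, 3 to 7 pathway genes with EGF and 5 to 8 with EGF+AngII, and 0 to 0 elsewhere. The 3 pathway genes with EGF came without control replicate 3, control replicate 4, EGF replicate 1 or EGF replicate 3. Of 14 named effects of single members none changed sign, and of 1759 values of the other effects 82 had the other sign. Other scalings moved the median of all genes by at most 0.02 on the log2 scale. No paired analysis was possible because no label carries a replicate number that could tie a control library to a stimulated one, and the replicate numbers used here only name the libraries of a group in library order. Depth limits ID1 after 6 h, with 4 to 13 counts in control.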
